A study of Mus musculus with 12 samples.

Results

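The genes described here are 31 mouse genes of glycolysis, lactate handling and glycogen, taken by symbol from the 48321 genes listed for 12 RNAseq libraries of immortalized brown adipocytes. The 31 comprise 4 genes of glucose uptake and phosphorylation, 7 of upper glycolysis, 6 of lower glycolysis, 4 lactate enzymes and monocarboxylate transporters, 4 fructose 2,6-bisphosphate enzymes and 6 glycogen genes. The cells were brown preadipocytes from interscapular fat, immortalized with SV40 large T antigen. The series text gives wild-type C57BL/6J mice as their source, and the study's methods name 1 newborn wild-type animal. They were transduced with lentivirus carrying either the empty pLEX vector or pLEX with tSema4B, a truncated, soluble form of semaphorin 4B (the labels write Sema4B), and each construct was represented by 1 stable line. After 8 days of differentiation, first with IBMX, rosiglitazone, dexamethasone, insulin and T3 and later with insulin and T3 as the remaining additions, all cells went into serum-free medium with albumin for 6 h, with or without 2 µM norepinephrine (NE), the transmitter that activates brown fat through beta-adrenoceptors. The 4 groups of 3 libraries are called unstimulated vector, unstimulated tSema4B, NE-treated vector and NE-treated tSema4B below. The series text calls the 3 libraries of a group technical replicates. The p-values therefore measure the spread between these libraries, and the tSema4B comparisons set 1 line of each construct against the other.

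Glycolysis splits glucose into pyruvate through a fixed chain of cytosolic enzymes, many of which exist as isozymes encoded by separate genes. Lactate dehydrogenase interconverts pyruvate and lactate, and monocarboxylate transporters carry lactate across the plasma membrane together with a proton. The bifunctional enzymes of the Pfkfb family set the level of fructose 2,6-bisphosphate, a strong activator of phosphofructokinase. Glycogen is built from UDP-glucose by glycogen synthase and branching enzyme and is broken down by glycogen phosphorylase. Brown adipocytes take up much glucose when NE stimulates them, release part of it as lactate, and hold a small glycogen pool.

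Reads counted on genes ranged from 2000780 to 5409583 per library. The NE-treated vector libraries were the deepest, with 4739777 to 5409583 reads, and the unstimulated tSema4B libraries the shallowest, with 2000780 to 2541747. All values below are normalized read counts, that is, reads divided by a size factor of the library, and 1 read was worth between 0.593 and 1.55 normalized counts. Sema4b itself, whose count does not separate endogenous from introduced transcripts, averaged 116797 ± 6692 normalized counts (SD, n = 3) in the unstimulated vector line and 281514 ± 31108 in the unstimulated tSema4B line. After NE its means were 74266 ± 8219 and 234276 ± 32374. Adipocyte markers differed strongly between the lines. All 10 genes of an adipocyte list, among them Adipoq, Fabp4 and Plin1, were lower in tSema4B cells in both conditions (limma, adjusted p of 0.05 or less), with summed levels of 42229 to 48589 in unstimulated vector against 7368 to 10115 in unstimulated tSema4B libraries, and of 55998 to 67499 against 11361 to 12901 after NE. Of 12 preadipocyte and fibroblast markers, 11 could be tested, of which 8 were higher in unstimulated and 9 in NE-treated tSema4B cells (5.64% and 9.79% of all genes), and their summed level was 23349 to 23645 against 40515 to 46434 without NE and 18770 to 20598 against 36839 to 39705 with it. Of 8 brown adipocyte markers 6 could be tested and 4 were lower in tSema4B cells in both conditions (7.39% and 11.2% of all genes), while Dio2 had no read in any library and Zic1 averaged at most 1.98 normalized counts in a group. With NE, 6 of the 11 fibroblast markers fell and 1 rose in each line, and of the adipocyte markers 1 rose and 2 fell in vector cells and 3 rose in tSema4B cells, beside 6.82% of all genes risen and 4.78% fallen in vector and 3.68% and 2.58% in tSema4B cells. Beside the same shares, 1 of the 6 tested brown adipocyte markers rose in vector and 2 in tSema4B cells, and 0 fell. The summed level of the brown adipocyte list was 215 to 268 in unstimulated and 490 to 524 in NE-treated vector libraries. In tSema4B libraries it was 52.4 to 76.7 without and 126 to 151 with NE. Summed macrophage and endothelial markers stayed at or below 24.6 normalized counts in every library, and skeletal muscle markers at or below 41.7. A list of 5 erythroid and neuronal markers, of which only Tubb3 could be tested, summed to 28.3 to 31.95 in unstimulated vector against 64.4 to 93.1 in unstimulated tSema4B libraries, and to 28.2 to 50.4 against 52.9 to 62.2 after NE. The part of these marker differences in the results below was not tested, and in bulk RNA fewer cells of a type and less RNA per cell cannot be told apart.

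Ldha, which encodes the lactate dehydrogenase subunit that favours lactate production, had the highest level per kb of transcript in all 4 groups, followed by the aldolase gene Aldoa, the triosephosphate isomerase gene Tpi1 and the pyruvate kinase gene Pkm. In unstimulated vector cells their means were 3381 ± 232, 3018 ± 117, 1581 ± 7.44 and 1301 ± 75.8 normalized counts per kb (SD, n = 3). Eno1, the ubiquitous enolase, followed in 5th place in each group at 299 to 443 per kb. At the other end, the second aldolase gene Aldoc, the liver phosphorylase gene Pygl and Pfkfb2 had group means below 7 per kb in all groups. Aldoc and Pygl did not reach 10 normalized counts in 3 libraries and were not tested, so that 29 of the 31 members were tested among 11998 genes. Together the 31 genes took 0.681% to 0.761% of the normalized counts of a library in unstimulated vector cells, 0.502% to 0.504% in unstimulated tSema4B cells, 0.832% to 0.856% in NE-treated vector cells and 0.729% to 0.785% in NE-treated tSema4B cells. The unstimulated tSema4B libraries were below and the NE-treated vector libraries above all the others, while the ranges of unstimulated vector and NE-treated tSema4B cells overlapped.

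**Figure D1:**
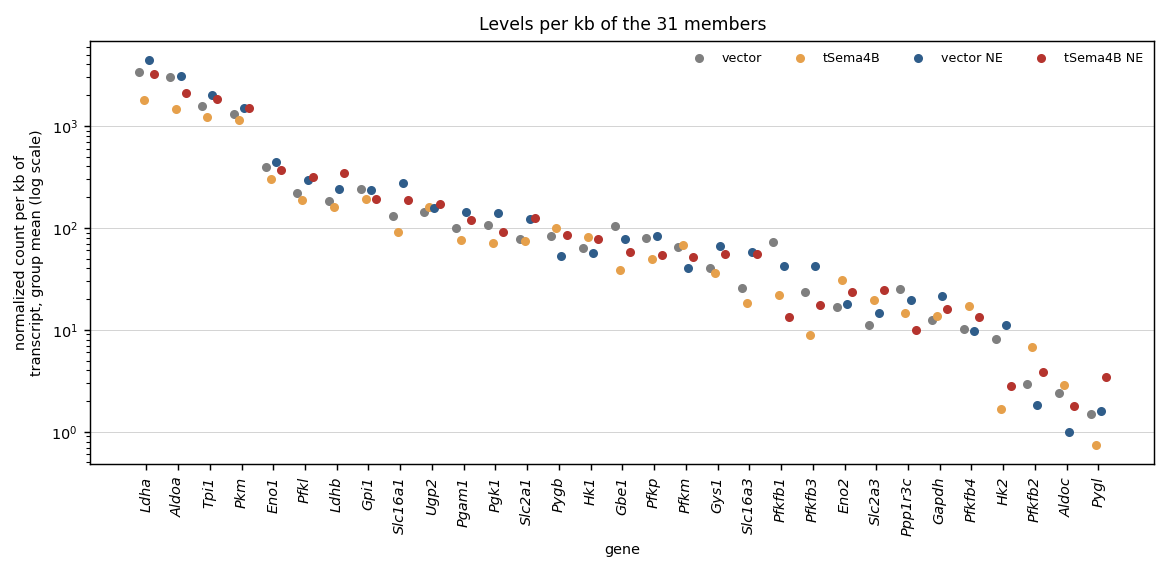
Mean level of each of the 31 genes per kb of its principal transcript (y axis, normalized counts per kb, log scale), with 1 point per group of 3 libraries and genes ordered by their mean over all libraries. Ldha, Aldoa, Tpi1 and Pkm had at least 1143 per kb in each group, while Pfkfb2, Aldoc and Pygl lay below 7.

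Some of these values are uncertain because the genes share sequence with other genes. Of the 100-base stretches of the Gapdh transcript, 78.0% also occur in other annotated transcripts, of 86 genes of which 81 are pseudogenes, and Gapdh, a classical housekeeping gene, received only 308 reads in the 12 libraries together. The shared percentage was 67.0% for Pgk1, 59.0% for Eno1, 39.7% for Pgam1, 23.9% for Pfkfb2 and 16.04% for Pfkp, which overlaps Pitrm1, and it was below 10% for the other 25 members. Reads from such stretches cannot be assigned to 1 gene, and how they were counted is not given in the sources used here, so the levels of these 6 genes are uncertain. Among the other 25, Pkm came closest to the limit at 9.82%. Exons of another annotated gene overlapped 15.3% of the exon bases of Pkm, 11.5% of Gpi1 and 10.2% of Pfkm. The levels of these genes are not free of the uncertainty either. For Aldoa, 2 neighbouring annotated genes carry the name, and the length used was that of the one with more transcripts.

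The stretch just upstream of an annotated start is shown for 3 members that rose with NE in both lines, Ldha, Slc16a1 and Slc16a3, and for 2 with large differences between the lines, Hk2 and Pfkfb3. All 5 were chosen with their motif matches known. Pfkl and Tpi1, which also rose in both lines, hold no match of the motifs named next in any listed window and are not shown. The same holds for Pfkfb1 and Gbe1, which also differed strongly between the lines. Slc2a1 and Pgam1, which rose in both lines, and Aldoa, which differed strongly between the unstimulated lines, hold a match and are not shown either. In the 250 bases before the start, 2 short motifs were searched on both strands, ACGTG, the core of the hypoxia response element, and TGACG, the conserved part of the cAMP response element, together with the full palindrome TGACGTCA, which contains TGACG on either strand. Capitals mark these matches, and CACGTG holds ACGTG on both strands. The sequences are from RefSeq promoters of GRCm38.p6, written 5′ to 3′ on the strand of the gene, for Ldha (chr7:46845554-46845803, plus strand), the lactate transporter genes Slc16a1 (chr3:104638414-104638663, plus strand) and Slc16a3 (chr11:120948817-120949066, plus strand), the hexokinase gene Hk2 (chr6:82774455-82774704, minus strand) and Pfkfb3 (chr2:11502091-11502340, minus strand).
Ldha: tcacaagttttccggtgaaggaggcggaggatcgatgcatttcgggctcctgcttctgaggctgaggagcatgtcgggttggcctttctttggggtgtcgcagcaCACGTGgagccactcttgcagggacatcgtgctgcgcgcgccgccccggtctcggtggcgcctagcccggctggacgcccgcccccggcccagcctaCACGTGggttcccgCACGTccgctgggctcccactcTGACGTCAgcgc
Slc16a1: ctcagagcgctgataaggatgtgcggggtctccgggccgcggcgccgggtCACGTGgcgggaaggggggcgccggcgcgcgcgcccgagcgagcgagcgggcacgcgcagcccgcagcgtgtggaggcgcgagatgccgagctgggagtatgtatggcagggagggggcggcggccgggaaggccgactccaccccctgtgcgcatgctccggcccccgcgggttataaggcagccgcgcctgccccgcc
Slc16a3: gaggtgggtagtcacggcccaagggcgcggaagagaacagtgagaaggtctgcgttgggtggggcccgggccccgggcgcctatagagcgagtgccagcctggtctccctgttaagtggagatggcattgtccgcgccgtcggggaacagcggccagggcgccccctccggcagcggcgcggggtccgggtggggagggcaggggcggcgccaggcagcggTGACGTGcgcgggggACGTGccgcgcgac
Hk2: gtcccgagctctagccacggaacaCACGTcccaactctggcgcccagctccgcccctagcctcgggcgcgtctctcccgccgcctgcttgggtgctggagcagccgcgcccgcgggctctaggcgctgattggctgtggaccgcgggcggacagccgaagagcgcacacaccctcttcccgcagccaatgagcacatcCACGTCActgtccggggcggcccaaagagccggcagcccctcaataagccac
Pfkfb3: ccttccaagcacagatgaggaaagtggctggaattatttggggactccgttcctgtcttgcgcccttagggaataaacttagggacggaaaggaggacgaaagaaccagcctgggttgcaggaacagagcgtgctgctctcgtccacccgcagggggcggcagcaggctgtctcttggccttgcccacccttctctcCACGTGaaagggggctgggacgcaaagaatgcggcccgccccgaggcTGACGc
The Ldha stretch held CACGTG beginning 145 and 48 bases before the start and TGACGTCA 12 bases before it. Of the 2 starts listed for Ldha, the one with more matches is shown, and the other (chr7:46846832-46847081) held 1 TGACG and no ACGTG. Pfkfb3 also has 2, with 3 matches each, and the one whose stretch holds fewer exon bases is shown. In Slc16a1 there was 1 CACGTG, 200 bases upstream, and no TGACG. In Slc16a3 the run TGACGTG, where both motifs overlap, began 29 bases upstream. Over the 30 members with a listed promoter, ACGTG occurred in at least 1 window of 16 (53.3%) and TGACG of 8 (26.7%), against 18.5% and 19.8% of the 27025 genes in the table. TGACGTCA was found in 1 member, Ldha, and in 1.77% of all genes. Counted by window, ACGTG was in 20 of 48 member windows (41.7%) and in 16.6% of all 32851. A match is a description of the letters, and binding was not measured here.

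The first pair of comparisons asked how the genes differed between the tSema4B and the vector line. In unstimulated cells 12 of the 29 tested members were lower in tSema4B cells and 0 were higher (limma on log2(normalized count + 1), adjusted p of 0.05 or less over all 11998 genes), against 7.39% of all genes lower and 5.64% higher. The 12 were Hk2, Gpi1, Pfkp, Aldoa, Tpi1, Pgk1, Eno1, Ldha, Slc16a1, Pfkfb1, Pfkfb3 and Gbe1. Among them Pfkp, Pgk1 and Eno1 are genes whose levels are uncertain because of shared sequence. No member was called higher by limma, but 20 of the 29 had an unadjusted p under 0.05 in either direction, as did 26.1% of all genes, and edgeR and DESeq2 each called 1 higher, Eno2, beside 5.48% and 6.40% of all genes. When the log2 fold change also had to be 1 or more in size, 5 were lower (2.71% of all genes) and 0 higher (1.11%). The median log2 fold change was -0.34 over the members and -0.0025 over all genes tested. After NE, 11 members were lower (11.2% of all genes) and 2 were higher, Ldhb and Pygb (9.79% of all genes; edgeR called 3 members and 10.6% of all genes higher, DESeq2 4 and 11.5%), with 3 lower (3.73%) and 0 higher (2.03%) past both thresholds and a median of -0.24. Of the lower members, 10 were called in both conditions. The share of all genes called lower in both is not given here, so this overlap is not read as particular to the members. These comparisons share no library but set the same pair of lines against each other.

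The second pair asked what NE did in each line. In vector cells 8 members rose, Slc2a1, Pfkl, Tpi1, Pgam1, Ldha, Slc16a1, Slc16a3 and Gys1, and 2 fell, Pfkm and Pygb, against 6.82% and 4.78% of all genes. The count of 8 became 5 without unstimulated vector replicate 3 and 4 without NE-treated vector replicate 3, and that of 2 became 1 without unstimulated vector replicate 1. The shares of all genes called without these libraries are not given here. Past both thresholds 2 members rose (1.66% of all genes) and 0 fell (0.975%). In tSema4B cells 11 rose, against 3.68% of all genes, and 0 fell, against 2.58%. Past both thresholds 4 rose (1.31%) and 0 fell (0.758%). By limma 18 of the 29 members had an unadjusted p under 0.05 there in either direction, as did 19.9% of all genes, and edgeR and DESeq2 called 0 members lower as well, beside 2.26% and 3.10% of all genes. The median log2 fold change of the members was 0.22 in vector and 0.36 in tSema4B cells, beside -0.019 and -0.0048 over all genes. Called as risen in both lines were 7, namely Slc2a1, Pfkl, Tpi1, Pgam1, Ldha, Slc16a1 and Slc16a3. The remaining 4 of the 11 in the tSema4B line were Aldoa, Pkm, Ldhb and Pfkfb3. The share of all genes risen in both lines is not given here, so this overlap is not read as particular to the members.

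**Figure D2:**
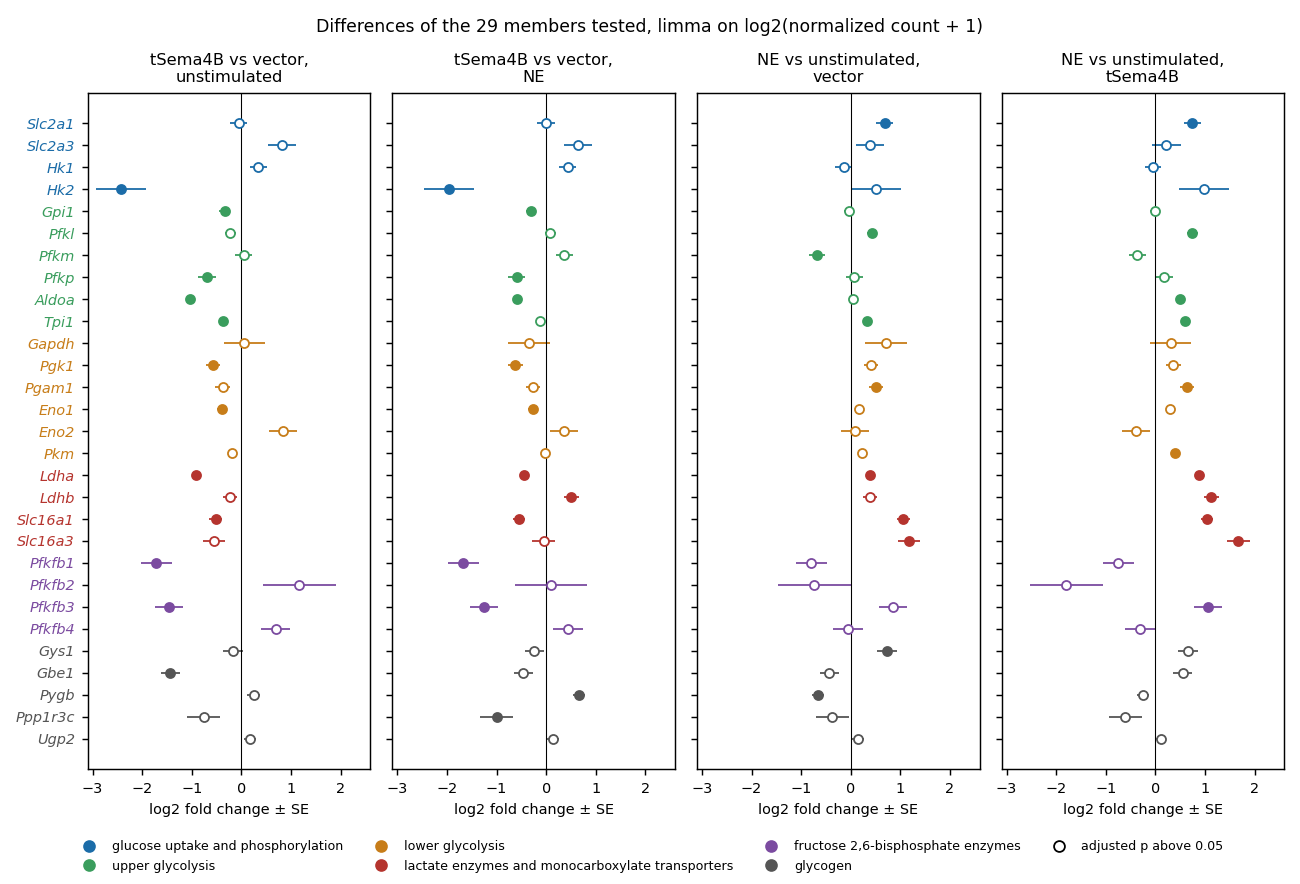
Log2 fold change ± SE of the 29 tested genes (rows) in the 4 comparisons (panels), from limma on log2(normalized count + 1) with 3 libraries per group. Filled points passed an adjusted p of 0.05, and in the panels of tSema4B against vector the filled points lie left of 0 except for Ldhb and Pygb after NE.

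Among the genes that bring glucose into the cell and trap it, hexokinase 2 differed most between the lines. Hk2 (chr6:82725025-82774454, minus strand), the insulin-responsive hexokinase of muscle and fat, measured 61.9, 48.8 and 25.1 normalized counts in the 3 unstimulated vector libraries and 2.38, 18.6 and 6.85 in the unstimulated tSema4B libraries. After NE it measured 73.9, 50.4 and 60.2 in vector and 9.65, 17.04 and 19.8 in tSema4B cells. Each vector library lay above each tSema4B library of its condition, at a log2 fold change of -2.43 ± 0.51 without NE (limma, adjusted p = 0.00198) and -1.96 ± 0.51 with NE (adjusted p = 0.00772). These levels rest on few reads, 486 in the 12 libraries together, and with a pseudocount of 10 the first of these log2 fold changes was -1.55. Hk1, the ubiquitous hexokinase, passed no test in the 4-group limma model and had group means from 219 to 312. After NE each tSema4B library was above the vector libraries, at 0.43 ± 0.17 (limma, adjusted p = 0.0732), and the difference passed with DESeq2 (adjusted p = 0.0474), with libraries rescaled to the same total (adjusted p = 0.0276) and without NE-treated tSema4B replicate 1 (adjusted p = 0.0162).

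The glucose transporter genes took another course. Slc2a1 (chr4:119108711-119137983, plus strand), which encodes the basal transporter GLUT1, measured 313, 252 and 196 in unstimulated and 412, 382 and 411 in NE-treated vector cells. In tSema4B cells it measured 217, 311 and 203 without and 423, 324 and 473 with NE. The NE-treated libraries of each line were all above its unstimulated ones, and Slc2a1 rose by a log2 fold change of 0.69 ± 0.17 in vector (adjusted p = 0.012) and 0.75 ± 0.17 in tSema4B cells (adjusted p = 0.0104). Between the lines its log2 fold change was -0.06 ± 0.17 without NE, where the libraries overlapped, and -0.000145 with NE. The call in vector cells was lost without unstimulated vector replicate 3 or NE-treated vector replicate 3 (adjusted p between 0.0519 and 0.0871), and that in tSema4B cells without unstimulated tSema4B replicate 1 or 3 or NE-treated tSema4B replicate 3 (adjusted p between 0.0512 and 0.0605). Slc2a3, the high-affinity transporter GLUT3, had group means from 44.1 to 96.3 and passed no test in the 4-group limma model. Its log2 fold change between tSema4B and vector cells was 0.81 ± 0.28 without NE (limma, adjusted p = 0.0632), which passed with quantile normalization (adjusted p = 0.0486) and the replicate block (adjusted p = 0.0455), and 0.65 ± 0.28 with NE (adjusted p = 0.111). The latter passed with edgeR (adjusted p = 0.0452), with DESeq2 (adjusted p = 0.0401) and without NE-treated tSema4B replicate 3, where it was 1.03 (adjusted p = 0.00844).

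In upper glycolysis, from glucose 6-phosphate to the triose phosphates, 4 of 6 tested members were lower in unstimulated tSema4B cells, beside 7.39% of all genes. Aldoa (chr7:126795234-126800751, minus strand), the aldolase of muscle and most other tissues, measured 4744, 4543 and 4391 in unstimulated vector and 2127, 2347 and 2223 in unstimulated tSema4B libraries. With NE it measured 4490, 4892 and 4680 in vector and 3070, 2875 and 3486 in tSema4B cells. The lines did not overlap in either condition, and the log2 fold change was -1.03 ± 0.07 without NE (adjusted p = 1.37e-09) and -0.58 ± 0.07 with NE (adjusted p = 6.78e-06). NE raised Aldoa in tSema4B cells by 0.49 ± 0.07 (adjusted p = 0.000196), whereas in vector cells the difference was 0.04 ± 0.07 with overlapping libraries.

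Tpi1, which interconverts the triose phosphates, was lower in unstimulated tSema4B cells at a log2 fold change of -0.37 ± 0.07 (adjusted p = 0.000484) and rose with NE in both lines, by 0.33 ± 0.07 in vector and 0.59 ± 0.07 in tSema4B cells. After NE its levels of 3078 to 3378 in vector and 2905 to 2996 in tSema4B libraries did not pass the test between the lines (adjusted p = 0.235). Gpi1, the glucose 6-phosphate isomerase, was called lower in both conditions at -0.34 and -0.31, a call lost under 8 of 17 alternatives each. Those included leaving out unstimulated vector replicate 1 or 2 or unstimulated tSema4B replicate 1 or 3 (adjusted p between 0.0939 and 0.191) without NE and NE-treated vector replicate 1, 2 or 3 or NE-treated tSema4B replicate 1 or 2 (adjusted p between 0.0561 and 0.174) with it. The platelet-type phosphofructokinase gene Pfkp was lower at -0.69 ± 0.18 and -0.60 ± 0.18, and its call was lost without unstimulated vector replicate 1 or 2 or unstimulated tSema4B replicate 3 (adjusted p between 0.0618 and 0.0754) in the first comparison and without NE-treated vector replicate 1 or 2 or NE-treated tSema4B replicate 1 (adjusted p between 0.0573 and 0.0883) in the second. Without unstimulated tSema4B replicate 3 its log2 fold change was -0.45.

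The other phosphofructokinase genes moved in opposite directions with NE in vector cells. Pfkl, the liver-type gene, measured 781 to 866 in unstimulated and 999 to 1172 in NE-treated vector libraries, and 577 to 824 and 1151 to 1195 in tSema4B libraries. It rose by a log2 fold change of 0.43 ± 0.11 in vector (adjusted p = 0.0109) and 0.74 ± 0.11 in tSema4B cells (adjusted p = 0.00012), and the first of these calls was lost without NE-treated vector replicate 3 (adjusted p = 0.0663). Pfkm (chr15:98092589-98132451, plus strand), the muscle-type gene, measured 218, 169.8 and 179 in unstimulated and 113, 121 and 116 in NE-treated vector cells. In tSema4B cells it measured 244, 178 and 167 without and 149, 139 and 164 with NE. It fell in vector cells, where the groups did not overlap, at a log2 fold change of -0.68 ± 0.17 (adjusted p = 0.00952), a call lost without unstimulated vector replicate 1 (adjusted p = 0.0666). In tSema4B cells the groups did not overlap either, at -0.36 ± 0.17 (adjusted p = 0.225), and the value ranged from -0.47 to -0.20 over the alternatives. Aldoc, the aldolase of brain, measured at most 14.2 normalized counts in a library.

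Lower glycolysis, from glyceraldehyde 3-phosphate to pyruvate, held 2 lower members of 6 in each comparison of the lines, Pgk1 and Eno1, beside 7.39% of all genes without NE and 11.2% with NE. Both share much sequence with other genes, 67.0% of stretches for Pgk1 and 59.0% for Eno1, so their levels and differences are uncertain. Pgk1 (chrX:106187100-106203699, plus strand), the phosphoglycerate kinase that makes the first ATP of the pathway, measured 217, 201 and 162 in unstimulated vector and 123, 128 and 134 in unstimulated tSema4B cells. After NE it measured 249, 254 and 264 in vector and 181, 156 and 159.9 in tSema4B cells. The lines did not overlap, with a log2 fold change of -0.58 ± 0.15 without NE (adjusted p = 0.0104), lost without unstimulated vector replicate 1 (adjusted p = 0.0727), and -0.62 ± 0.15 with NE (adjusted p = 0.00416). Eno1 was lower at -0.40 ± 0.09 (adjusted p = 0.00566) and -0.27 ± 0.09 (adjusted p = 0.0436). The second of these calls was lost under 9 of 17 alternatives, among them leaving out NE-treated vector replicate 2 or 3 or NE-treated tSema4B replicate 1 or 2 (adjusted p between 0.124 and 0.145). Its log2 fold change was -0.17 after every library was set to an equal sum.

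Pgam1 (chr19:41911923-41918660, plus strand), a phosphoglycerate mutase, measured 177, 197 and 157 in unstimulated and 246, 255 and 255 in NE-treated vector cells. In tSema4B cells it measured 145, 122 and 138 without and 193, 223 and 215 with NE. Each NE-treated library exceeded the unstimulated ones of its line, and Pgam1 rose by 0.52 ± 0.14 in vector (adjusted p = 0.0205) and 0.63 ± 0.14 in tSema4B cells (adjusted p = 0.00787), the former lost without unstimulated vector replicate 1 or 3 or NE-treated vector replicate 1, 2 or 3 (adjusted p between 0.0534 and 0.102) and the latter in a model of only the 6 libraries compared (adjusted p = 0.0585). Pkm, whose splice forms encode the pyruvate kinases of most tissues, ranged from 2685 to 4001 over the 12 libraries. It rose with NE in tSema4B cells by 0.39 ± 0.07 (adjusted p = 0.00133), beside 0.22 ± 0.07 in vector cells (adjusted p = 0.0523), where it passed under 4 of 17 alternatives, DESeq2 among them (adjusted p = 0.0247). Eno2, the neuronal enolase, had a log2 fold change of 0.83 ± 0.28 between the unstimulated lines (limma, adjusted p = 0.0529), with each tSema4B library above the vector libraries. Gapdh ranged from 10.8 to 41.5 normalized counts and passed no test.

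The lactate genes showed both patterns side by side. Each of the 4 had a positive log2 fold change with NE in both lines, and 3 in vector and 4 in tSema4B cells passed, beside 6.82% and 3.68% of all genes. Ldha (chr7:46841475-46855627, plus strand) measured 6310, 6086 and 5516 in unstimulated vector and 3214, 3228 and 2970 in unstimulated tSema4B libraries. NE-treated libraries held 7550, 7825 and 8090 in vector and 5365, 5625 and 6264 in tSema4B cells. Vector libraries were above tSema4B libraries in each condition without overlap, and NE-treated tSema4B levels lay near those of unstimulated vector cells. The log2 fold change between the lines was -0.93 ± 0.07 without NE (adjusted p = 3.65e-09) and -0.45 ± 0.07 with NE (adjusted p = 8.69e-05). With NE, Ldha rose by 0.39 ± 0.07 in vector (adjusted p = 0.00082) and by 0.87 ± 0.07 in tSema4B cells (adjusted p = 3.67e-08).

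Ldhb (chr6:142490249-142507957, minus strand), the subunit of heart-type lactate dehydrogenase, measured 249.8, 229 and 245 in unstimulated and 364, 293 and 293 in NE-treated vector cells. The tSema4B libraries held 224, 167 and 231 without and 479, 506 and 374 with NE. The NE-treated tSema4B libraries were above all the others, and Ldhb was higher than in NE-treated vector cells by 0.51 ± 0.15 (adjusted p = 0.0165). That call was lost without NE-treated vector replicate 2 or 3 or NE-treated tSema4B replicate 1 or 2 (adjusted p between 0.0557 and 0.0823). In tSema4B cells NE raised Ldhb by 1.13 ± 0.15 (adjusted p = 3.54e-05), beside 0.39 ± 0.15 in vector cells (limma, adjusted p = 0.101). The vector groups did not overlap, and their difference passed in a model of only the 6 libraries compared (adjusted p = 0.0351).

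Slc16a3 (chr11:120948480-120960868, plus strand), which encodes MCT4, the transporter of lactate-exporting cells, had the largest rise with NE among the members in both lines. It measured 117, 117 and 96.9 in unstimulated and 219, 269.7 and 262 in NE-treated vector cells. The tSema4B libraries held 45.3, 113 and 80.8 without and 221, 219 and 287 with NE. NE-treated and unstimulated libraries did not overlap in either line, and the log2 fold change was 1.17 ± 0.23 in vector (adjusted p = 0.00179) and 1.67 ± 0.23 in tSema4B cells (adjusted p = 6.68e-05). Slc16a1 (chr3:104638668-104658462, plus strand), which encodes the more widely expressed MCT1, measured 574, 689 and 488 in unstimulated and 1249, 1104 and 1275 in NE-treated vector cells. In tSema4B cells it measured 422, 342 and 450.4 without and 754, 920.3 and 810.0 with NE. All 4 groups were apart, unstimulated tSema4B lowest and NE-treated vector highest, and Slc16a1 rose with NE by 1.06 ± 0.12 in vector (adjusted p = 5.38e-06) and 1.04 ± 0.12 in tSema4B cells (adjusted p = 1.07e-05). Between the lines the difference was -0.52 ± 0.12 without NE (adjusted p = 0.00632), lost without unstimulated vector replicate 2 (adjusted p = 0.0629), and -0.55 ± 0.12 with NE (adjusted p = 0.00303). For Slc16a3 the lines overlapped in both conditions, at -0.55 ± 0.23 without NE (limma, adjusted p = 0.122). Without unstimulated tSema4B replicate 2 that difference was -0.85 and passed (adjusted p = 0.0128). Over the alternatives it ranged from -0.85 to -0.20.

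**Figure D3:**
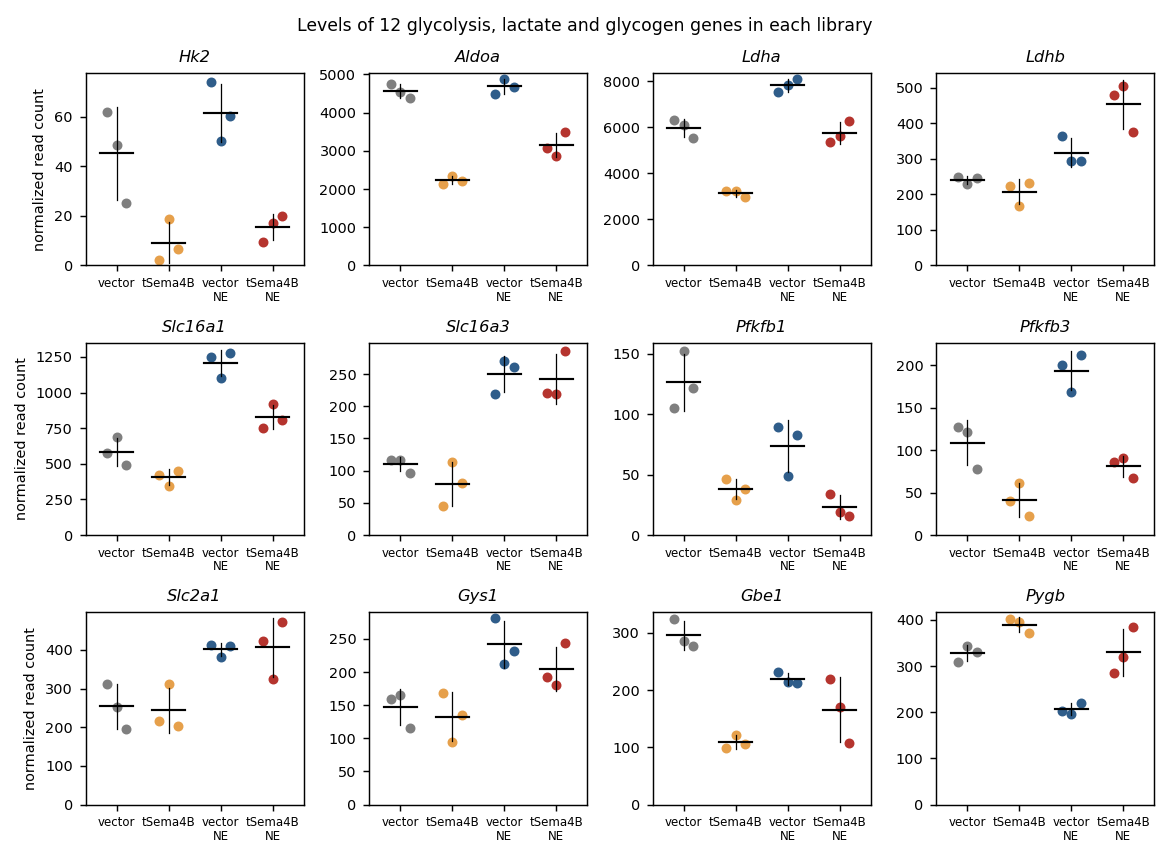
Normalized read count (y axes, linear from 0) of 12 genes in each of the 12 libraries, with points for libraries, horizontal bars for the mean and vertical bars for the SD of 3 libraries per group. Ldha and Slc16a1 show a level that is lower in tSema4B than in vector cells and higher with NE in both, and Hk2, Pfkfb1 and Pfkfb3 are lower in tSema4B cells in both conditions.

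Of the 4 fructose 2,6-bisphosphate enzymes, Pfkfb1 and Pfkfb3 were lower in tSema4B cells in both conditions, beside 7.39% of all genes without NE and 11.2% with NE. Pfkfb2 and Pfkfb4 passed no test in the 4-group limma model. Pfkfb1 (chrX:150588229-150643878, plus strand), the form of liver and muscle, measured 105, 152 and 122 in unstimulated vector and 46.5, 29.4 and 38.3 in unstimulated tSema4B cells. With NE it measured 89.4, 49.2 and 83.1 in vector and 34.3, 18.9 and 15.9 in tSema4B cells. The lines were apart in both conditions, at -1.71 ± 0.31 (adjusted p = 0.000492) and -1.67 ± 0.31 (adjusted p = 0.000505). Its log2 fold change with NE was -0.80 ± 0.31 in vector (adjusted p = 0.106) and -0.75 ± 0.31 in tSema4B cells (adjusted p = 0.167). The first passed with DESeq2 (adjusted p = 0.0465) and in a model of only the 6 libraries (adjusted p = 0.0171), the second without NE-treated tSema4B replicate 1 (adjusted p = 0.0457).

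Pfkfb3 (chr2:11471433-11554077, minus strand), the inducible form with high kinase activity, measured 127, 121 and 78.4 in unstimulated vector and 40.5, 61.9 and 21.9 in unstimulated tSema4B cells. After NE it measured 201, 168 and 213 in vector and 85.8, 90.9 and 67.4 in tSema4B cells. Vector exceeded tSema4B libraries without overlap, at a log2 fold change of -1.46 ± 0.28 (adjusted p = 0.000936) and -1.25 ± 0.28 (adjusted p = 0.0028). NE raised it in tSema4B cells by 1.06 ± 0.28 (adjusted p = 0.0245), and this call was lost without unstimulated tSema4B replicate 3 or NE-treated tSema4B replicate 1 or 2 (adjusted p between 0.0625 and 0.127), with a log2 fold change of 0.68 without the first of these. It was also lost with no filter on low values (adjusted p = 0.0581) and in a model of only the 6 libraries (adjusted p = 0.142). In vector cells, where the groups did not overlap, it was 0.85 ± 0.28 (limma, adjusted p = 0.0526), which passed under 6 of 17 alternatives, among them edgeR (adjusted p = 0.0159) and DESeq2 (adjusted p = 0.00716). Pfkfb2 rested on 184 reads in all and fell with NE in tSema4B cells only without NE-treated tSema4B replicate 3 (adjusted p = 0.00568), and Pfkfb4 had group means from 34.0 to 59.1.

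Of the 6 glycogen genes, Gbe1 was lower in unstimulated and Ppp1r3c in NE-treated tSema4B cells (limma), beside 7.39% and 11.2% of all genes. Pygb was higher in tSema4B cells after NE, beside 9.79% of all genes. With NE in vector cells Gys1 rose and Pygb fell, beside 6.82% and 4.78%. Gbe1 (chr16:70313949-70569716, plus strand), the branching enzyme, measured 325, 286 and 278 in unstimulated vector and 98.9, 122 and 105 in unstimulated tSema4B cells. After NE it measured 231, 213 and 213 in vector and 219.8, 171 and 107 in tSema4B cells. The unstimulated lines lay far apart, at -1.44 ± 0.19 (adjusted p = 1.31e-05), while the NE-treated ones overlapped, at -0.46 ± 0.19 (limma, adjusted p = 0.0962). The latter ranged from -0.69 to -0.17 over the alternatives and passed in 1 of 17, without NE-treated tSema4B replicate 1 (adjusted p = 0.0119). The log2 fold change of Gbe1 with NE in tSema4B cells was 0.55 ± 0.19 (limma, adjusted p = 0.0964) and ranged from 0.32 to 0.83 over the alternatives. It passed with DESeq2 (adjusted p = 0.0425) and without NE-treated tSema4B replicate 3, where it was 0.83 (adjusted p = 0.00335). In vector cells the value was -0.43 ± 0.19 (limma, adjusted p = 0.17), with groups that did not overlap. That value passed in a model of only the 6 libraries compared (adjusted p = 0.0172). Ppp1r3c (chr19:36731731-36736653, minus strand), which targets protein phosphatase 1 to glycogen, measured 80.4, 55.5 and 67.5 in unstimulated vector and 36.9, 49.5 and 32.9 in unstimulated tSema4B cells. After NE the vector libraries held 54.4, 36.7 and 68.7 and the tSema4B libraries 15.01, 31.2 and 34.4. The lines did not overlap in either condition, and the difference passed with NE at -0.9996 ± 0.33 (adjusted p = 0.0348) but not without it at -0.76 ± 0.33 (adjusted p = 0.141). The NE call was lost under 6 of 17 alternatives, including leaving out NE-treated vector replicate 1 or 3 or NE-treated tSema4B replicate 1 (adjusted p between 0.0982 and 0.172), and the log2 fold change was -0.64 without NE-treated tSema4B replicate 1.

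Pygb (chr2:150786735-150831758, plus strand), the brain-type glycogen phosphorylase, measured 309, 344 and 331 in unstimulated and 202, 197 and 221 in NE-treated vector cells. The tSema4B libraries held 403, 394 and 371 without and 284, 320.0 and 385 with NE. NE-treated vector libraries were the lowest, without overlap with any other group. Pygb fell with NE in vector cells at a log2 fold change of -0.67 ± 0.13 (adjusted p = 0.0013) and was higher in tSema4B than in vector cells after NE by 0.66 ± 0.13 (adjusted p = 0.000618).

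Gys1 (chr7:45434844-45456619, plus strand), the glycogen synthase outside the liver, measured 159.6, 166 and 115 in unstimulated and 281, 213 and 232 in NE-treated vector cells. In tSema4B cells the values were 168, 94.4 and 136 without and 192, 181 and 243 with NE. NE-treated libraries exceeded unstimulated ones in both lines. The rise passed in vector cells at 0.72 ± 0.20 (adjusted p = 0.0196), a call lost without unstimulated vector replicate 3 or NE-treated vector replicate 1 or 3 (adjusted p between 0.0582 and 0.117), and in tSema4B cells the value was 0.65 ± 0.20 (limma, adjusted p = 0.0532). The latter passed under 6 of 17 alternatives, among them a filter of 50 normalized counts (adjusted p = 0.0379), the replicate block (adjusted p = 0.04895) and leaving out unstimulated tSema4B replicate 1 (adjusted p = 0.0198). Over the alternatives the value in tSema4B cells ranged from 0.43 to 0.84. Ugp2, which makes UDP-glucose, passed no test, with group means from 382 to 464. Pygl measured at most 25.7 normalized counts, and 1 unstimulated tSema4B library had no Pygl read, where 3 reads would have been worth 4.11 normalized counts.

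The make-up of isozyme families was compared as each gene's share of its family's summed level per kb, which does not depend on the scaling of a library. Hk2 made up 11.3% ± 3.63 of the hexokinase level in unstimulated vector and 2.08% ± 2.04 in unstimulated tSema4B cells (SD, n = 3), and 16.4% ± 3.00 and 3.42% ± 0.527 after NE. The shares of the lines did not overlap. Ldhb made up 5.20% ± 0.427 of lactate dehydrogenase in unstimulated vector against 8.24% ± 1.53 in unstimulated tSema4B cells, and 5.21% ± 0.800 against 9.71% ± 1.93 after NE, again without overlap. The share of Pfkl in phosphofructokinase was 60.4% ± 3.07 in unstimulated and 70.6% ± 2.34 in NE-treated vector cells, and 61.6% ± 8.56 and 74.6% ± 1.52 in tSema4B cells, while Pfkm went from 18.04% ± 2.19 to 9.70% ± 0.831 and from 22.4% ± 5.35 to 12.4% ± 1.03. In the Pfkfb family the share of Pfkfb1 was 66.4% ± 4.47 in unstimulated vector and 40.2% ± 9.55 in unstimulated tSema4B cells. Pfkfb4 had 9.33% ± 1.04 and 30.9% ± 8.47 there, although its own level passed no test. The Pfkfb3 share was 21.6% ± 5.58 without and 44.0% ± 3.27 with NE in vector cells, and 16.5% ± 8.03 and 36.5% ± 4.59 in tSema4B cells.

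An exact two-sided permutation test of 3 against 3 libraries cannot give a p below 0.1. Over the 84 share comparisons the smallest adjusted p was 0.311, so no share passed. With the union of annotated exons as the length, the Hk2 shares became 20.5% in unstimulated vector and 28.6% in NE-treated vector cells, and the Ldhb share 7.87% in unstimulated vector and 12.3% in unstimulated tSema4B cells. Shares in the phosphofructokinase and Pfkfb families also depend on the length, and their values with that union are not given here. The union was 4017 bases for Pfkfb1 and 4875 for Pfkfb4, beside principal transcripts of 1739 and 3488 bases. The order of the Pfkfb shares is therefore tied to the length chosen.

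**Figure D4:**
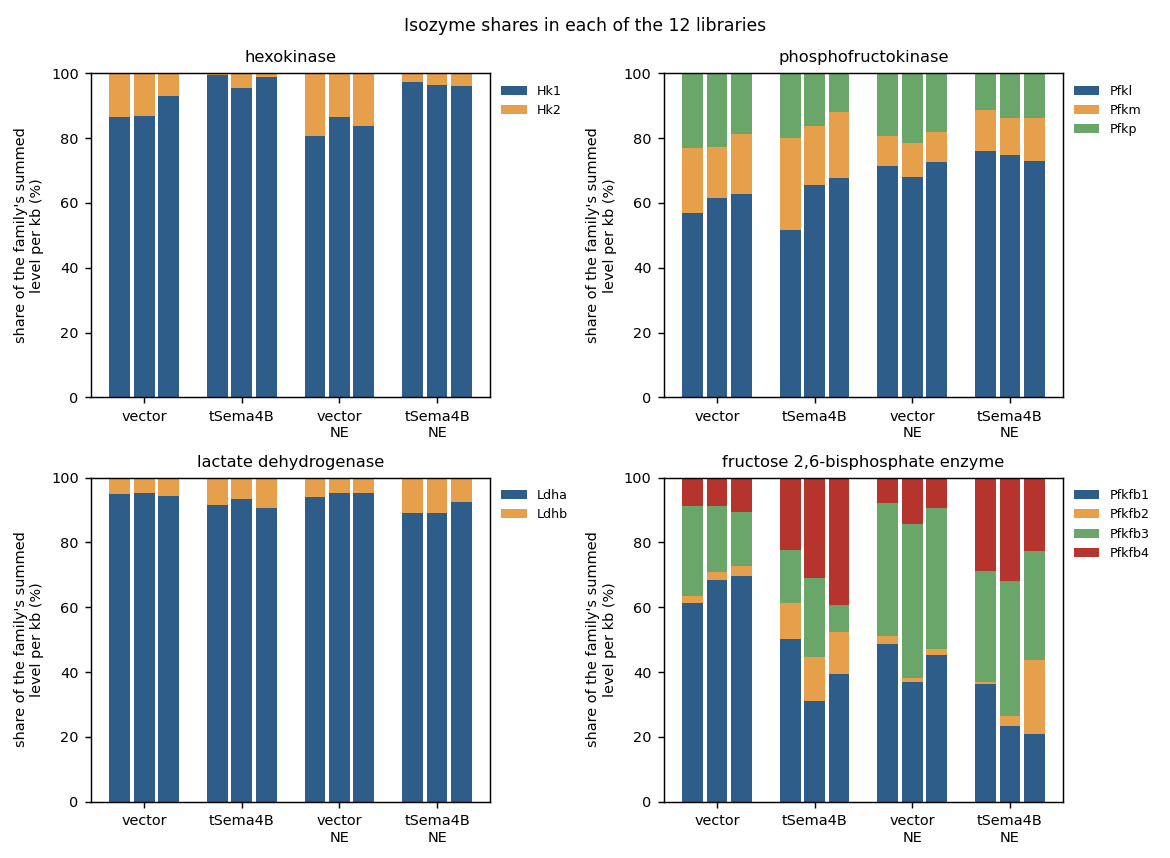
Share of each isozyme in the summed per-kb level of its family (y axes, percent), with 1 stacked bar per library and 3 libraries per group. The Hk2 segment is at least 7.11% in the vector libraries and at most 4.43% in the tSema4B libraries, and the Pfkfb3 segment widens with NE in both lines.

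Whether NE acted differently in the 2 lines was tested with the interaction term, the log2 fold change with NE in tSema4B cells minus that in vector cells. None of the 29 members passed with limma, where 3 of the 11998 genes did (0.0250%). An unadjusted p under 0.05 was found for 6 of the 29 members and for 10.2% of all genes, and the 6 terms were positive. They were Ldha at 0.48 ± 0.10 (adjusted p = 0.113), Aldoa at 0.45 ± 0.10 (adjusted p = 0.113), Gbe1 at 0.98 ± 0.27 (adjusted p = 0.188), Ldhb at 0.74 ± 0.21 (adjusted p = 0.206), Tpi1 at 0.25 ± 0.09 and Pygb at 0.42 ± 0.18. On the recovered whole reads edgeR called 0 members and 4 of all genes (0.0333%). DESeq2 called 4 members, Ldha, Aldoa, Gbe1 and Ldhb, and 101 of the 3857 genes to which it gave an adjusted p (2.62%). With limma, Ldha passed without replicate 2 of unstimulated tSema4B (adjusted p = 0.0433) or replicate 1 of NE-treated tSema4B (adjusted p = 0.0467), and Gbe1 without replicate 3 of NE-treated tSema4B (adjusted p = 0.0453).

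Other genes of the same pathways were counted from lists. Of 28 further glycolysis and lactate genes 14 could be tested. In tSema4B against vector cells 1 was higher and 2 lower without NE, beside 5.64% and 7.39% of all genes, and 1 was higher and 3 lower with NE, beside 9.79% and 11.2%. The same shares of all genes apply to the lists that follow, as do those for NE of 6.82% higher and 4.78% lower in vector and 3.68% higher and 2.58% lower in tSema4B cells. The insulin-responsive transporter gene Slc2a4 was among the lower ones at -2.57 ± 0.37 (adjusted p = 3.5e-05) without NE and -1.61 ± 0.37 with NE. Emb, an ancillary protein of monocarboxylate transporters, was higher in tSema4B cells at 0.68 ± 0.10 and 0.70 ± 0.10 and rose with NE in both lines, by 0.90 ± 0.10 in vector and 0.92 ± 0.10 in tSema4B cells (adjusted p = 1.68e-06 and 1.45e-06). Bsg, the main partner of MCT1 and MCT4, rose with NE by 0.25 ± 0.07 and 0.22 ± 0.07 (adjusted p = 0.0158 and 0.0496). Emb and Bsg were the 2 that rose, while 1 of the 14, Galm, fell in vector and 0 in tSema4B cells.

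Of 25 further glycogen genes 15 could be tested, with 1 higher and 2 lower in unstimulated and 2 higher and 1 lower in NE-treated tSema4B cells. Gaa, the lysosomal enzyme that degrades glycogen, was higher in tSema4B cells at 0.75 ± 0.09 (adjusted p = 5.45e-06) and 0.94 ± 0.09 (adjusted p = 2.12e-07). Ppp1r3d, another glycogen-targeting subunit of protein phosphatase 1, averaged 38.6 normalized counts in unstimulated vector and 2.56 in unstimulated tSema4B cells, and 29.6 and 5.91 after NE (adjusted p = 9.01e-05 and 0.0087). With NE 0 of the 15 rose in either line by limma, and 2 fell in vector cells, Gaa and Phka2, and 0 in tSema4B cells, where 5 and 4 of the 15 had an unadjusted p under 0.05, beside 23.9% and 19.9% of all genes.

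Among 29 hypoxia-inducible factors, their regulators and other target genes, 28 were tested. NE raised 7 in vector and 9 in tSema4B cells, beside 6.82% and 3.68% of all genes, and lowered 0 by limma, beside 4.78% and 2.58%. In each line 12 of the 28 had an unadjusted p under 0.05, as did 23.9% of all genes in vector and 19.9% in tSema4B cells. Hif1a, the oxygen-regulated subunit of hypoxia-inducible factor 1, rose by 0.57 ± 0.11 in vector (adjusted p = 0.00204) and 0.60 ± 0.11 in tSema4B cells (adjusted p = 0.00198). Between the lines 1 was higher and 5 lower without NE and 3 higher and 5 lower with NE, led by Bnip3, a mitophagy receptor, at -1.64 ± 0.14, and Pdk1, a pyruvate dehydrogenase kinase, at -1.56 ± 0.17 in unstimulated cells (adjusted p = 2.72e-08 and 6.31e-07). Bnip3 was the single gene of the list that passed the interaction test, at 1.16 ± 0.20 (adjusted p = 0.0371).

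Of 13 transcription factors and regulators 12 were tested. Mlxipl, which encodes the glucose-responsive factor ChREBP, was lower in tSema4B cells at -3.21 ± 0.34 (adjusted p = 4.08e-07) without NE and -1.44 ± 0.34 (adjusted p = 0.00356) with NE. Crem, a cAMP-responsive factor, rose with NE by 1.69 ± 0.20 in vector (adjusted p = 6.62e-06) and 1.40 ± 0.20 in tSema4B cells (adjusted p = 0.00012), and Myc by 0.96 ± 0.15 and 0.57 ± 0.15. In all, 1 regulator was higher and 2 lower between the unstimulated lines, 0 higher and 2 lower between the NE-treated ones, and NE raised 2 in vector and 3 in tSema4B cells and lowered 0.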

How the data were processed

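Libraries were made with SMART-Seq2 and Nextera XT and sequenced as 100-base single-end reads on an Illumina NextSeq. Per the labels and the study's methods, the authors aligned reads with STAR 2.7.9a to mm10 (GRCm38.p4), assigned them to genes with htseq-count, and deposited normalized counts, a signal equal to whole reads divided by a DESeq2 size factor. Strand setting, annotation and handling of multi-mapping reads are not given in the sources used here.

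From these values, log2(value + 1) was fitted with limma-trend (limma 3.58.1, R 4.3.3) in a 4-group model over the 11998 genes that reached 10 normalized counts in 3 or more libraries, with Benjamini-Hochberg adjustment over all of them. Fold changes are on that scale, which understates low genes. A gene passed at an adjusted p of 0.05 or less. Whole reads were recovered for 100% of nonzero values (within 0.01 of a whole number) and tested with edgeR 4.0.16 and DESeq2 1.42.0 as alternatives. Other pseudocounts, filters, scalings, a 6-library model, a replicate block and leaving out each library were also tried. Levels between genes were compared per kb of the principal transcript. The limma step was tested on simulated data with known changes before use.

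The members and lists were chosen with earlier results of these data known. Values in each library are given for up to 5 members per comparison and direction, those with the largest log2 fold change among the members that passed with groups that did not overlap, and up to 3 genes of the other lists are named by the same rule. Shared sequence was counted over all 100-base stretches of GENCODE mouse transcripts.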

Additional observations from a re-analysis of the deposited data

How the results depend on the processing

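Of the 46 calls of a member in a comparison, 29 held under every alternative tried, and in none of the 782 values under the alternatives did a called member change direction. Of the 99 pairs of a member and a comparison without a call, 24 passed under at least 1 alternative. A log2 fold change that also had to be 1 or more in size left 5 lower members in unstimulated tSema4B cells, 3 lower and 0 higher after NE, 2 risen and 0 fallen with NE in vector cells, and 4 risen in tSema4B cells. The count of higher members in unstimulated tSema4B cells, 0 in the report, became 1 with a pseudocount of 10, a filter of 50 normalized counts, rescaling to the same total, edgeR and DESeq2, each time Eno2, 1 with the replicate block and 2 with quantile normalization. The count of lower members there, 12 in the report, became 15 with rescaling over nuclear genes, which added Pfkl, Pgam1 and Pkm. After NE the 11 lower members became 8 with no filter on low values and with rescaling to the same total, which both lost Eno1, Gpi1 and Ppp1r3c. DESeq2 called 4 members higher after NE, and the model of only 6 libraries called 4 fallen with NE in vector cells. There the risen members, 8 in the report, became 12 in that model and 11 with DESeq2. The interaction test called 1 member with rescaling to the same total, 1 with quantile normalization and 4 with DESeq2. Apart from the shares given above, the shares of all genes called under these alternatives are not given here. The shifts are therefore not read as particular to the members, and their cause was not tested.

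Leaving out 1 library at a time gave 0 to 1 higher and 9 to 14 lower members in unstimulated tSema4B cells, 1 to 3 higher and 8 to 11 lower after NE, 4 to 8 risen and 1 to 2 fallen with NE in vector cells, 9 to 11 risen and 0 to 1 fallen in tSema4B cells, and 0 to 1 in the interaction test. The lowest count of risen members in vector cells, 4, came without NE-treated vector replicate 3, where Gys1, Pfkl, Pgam1 and Slc2a1 no longer passed. Deviations of the 18 pairs of libraries with the same replicate number correlated at -0.047 to 0.0282, so the numbers were not taken as pairing. With the replicate block the counts of higher and lower members were 1 and 12 without NE, 2 and 10 with NE, 9 and 2 for NE in vector cells, 12 and 0 for NE in tSema4B cells, and 0 in the interaction test. For the left-out libraries and the replicate block the shares of all genes called are not given here. Changes in these counts are therefore not read as particular to the members. Depth limits the genes with few reads, Hk2, Pfkfb2, Gapdh, Aldoc and Pygl.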
